A study of Mus musculus with 18 samples.

Results

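The clustered protocadherins are 57 protein-coding genes of the mouse, 14 in the alpha cluster, 22 in the beta cluster and 21 in the gamma cluster, out of 55385 genes in the count table. They were chosen by symbol alone, as the protein-coding genes whose names begin with Pcdha, Pcdhb followed by a digit, or Pcdhg, and no measured value entered the choice. All lie on the plus strand of chromosome 18 (build GRCm38, GENCODE release M21), the alpha cluster from 36930184 to 37187661, the beta cluster from 37264938 to 37524479 and the gamma cluster from 37661793 to 37841873. Pcdhgb8, which the annotation lists as a polymorphic pseudogene, was not a member.

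Clustered protocadherins are adhesion proteins on the surface of neurons, and matching sets of them let a neuron tell its own branches from those of its neighbours. In the alpha and gamma clusters each gene has its own promoter and first exon, which encodes the outer part of the protein and is spliced to constant exons shared by the whole cluster, whereas each beta gene is a single exon with no constant part. A neuron switches on only some of these promoters, a choice that involves CTCF, cohesin and DNA methylation, while the C-type isoforms at the end of the alpha and gamma clusters are used more uniformly across neurons.

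The series holds 18 polyadenylated RNA libraries of mouse brain cortex, 6 for each genotype, of which 3 were female and 3 male. Dp16_2xIFNRs mice, aged 17.7 to 18.0 weeks, carry the Dp16 duplication but are described by the submitters as normalized for the dosage of the interferon receptors. Dp16 mice, aged 17.1 to 18.0 weeks, carry a duplicated segment of chromosome 16 and are used to model trisomy 21, and WT mice, aged 17.1 to 18.0 weeks, were C57BL/6J. The protocadherin clusters lie on another chromosome, outside the duplication, and the labels record no treatment. The comparison of each duplication genotype with WT asks whether trisomy of the segment goes with a change in protocadherin use, and that of Dp16_2xIFNRs with Dp16 asks whether the copies of the interferon receptors matter for it.

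Library totals ran from 46346019 to 67281449 counts, and the members held 26951 to 43836 counts per library, or 0.0582% to 0.0754% of the total. In the markers of cortical cells, Slc17a7 of excitatory neurons stood at 1235 to 1699 CPM (counts scaled to a common library size), Gad1 of GABAergic neurons at 254 to 355 CPM and Slc1a3 of astrocytes at 573 to 939 CPM. Markers of neighbouring tissue varied between libraries: the choroid plexus gene Ttr ran from 1.80 to 351 CPM and the striatal gene Drd2 from 8.42 to 58.3 CPM, and their part in any value below was not tested. In whole cortex, fewer cells of a type and less RNA per cell cannot be told apart. The labels number the samples of a group without stating how the animals were related, and p-values measure the spread between these samples, part of which may be technical.

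Expression was carried by a few isoforms, with the C-type genes Pcdhgc5, Pcdhgc3 and Pcdhac2 in front. Levels between genes are given per length, as the authors' RPKM (reads per kilobase of gene, scaled to library size), averaged over all 18 libraries with their SD. Pcdhgc5 stood first at 25.8 ± 2.27 RPKM, with libraries from 22.1 to 30.2 RPKM. Pcdhgc3, which promotes the branching of cortical dendrites, followed at 21.7 ± 1.88 RPKM, from 17.5 to 25.8 RPKM, so the ranges of these 2 genes overlapped. The third was Pcdhac2, needed for the even spacing of serotonergic axons, at 6.37 ± 0.792 RPKM with libraries from 4.96 to 7.68 RPKM, below every library of both and overlapping the next gene, Pcdhga11, at 3.87 to 5.70 RPKM. Pcdhgc4, on which the survival of many interneurons depends, stood at 2.40 ± 0.211 RPKM, and Pcdhac1 at 0.656 ± 0.112 RPKM, so the C-type genes differed widely among themselves.

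Outside the C-type genes, gamma isoforms stood highest and alpha isoforms lowest by RPKM, whose lengths include shared exons. The median over the 18 remaining gamma isoforms was 2.24 RPKM, over the 22 beta isoforms 1.23 RPKM and over the 12 remaining alpha isoforms 0.514 RPKM. The gamma range ran from Pcdhga1 at 0.951 RPKM and Pcdhgb4 at 1.11 RPKM to Pcdhga12 at 4.27 RPKM and Pcdhga11 at 4.83 RPKM. Among tested beta genes Pcdhb21 at 0.616 RPKM and Pcdhb4 at 0.621 RPKM were the lowest, and Pcdhb17 at 3.21 RPKM and Pcdhb9 at 3.96 RPKM the highest. In the alpha cluster Pcdha8 at 0.0792 RPKM and Pcdha4 at 0.118 RPKM stood at the bottom, and Pcdha5 at 0.860 RPKM and Pcdha12 at 1.70 RPKM at the top.

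Pcdhb1, the first gene of the beta cluster, was close to silent. It had 0 to 9 counts per library and 92 counts in all, 30 of them in Dp16_2xIFNRs, 33 in Dp16 and 29 in WT. WT replicate 3 had 0 counts of it, which allows a level of up to 0.0578 CPM. It was the only member that failed the filter on low counts, so 56 of 57 members were tested. This limit covers counting error only, since the reads carry no molecular identifiers.

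**Figure D1:**
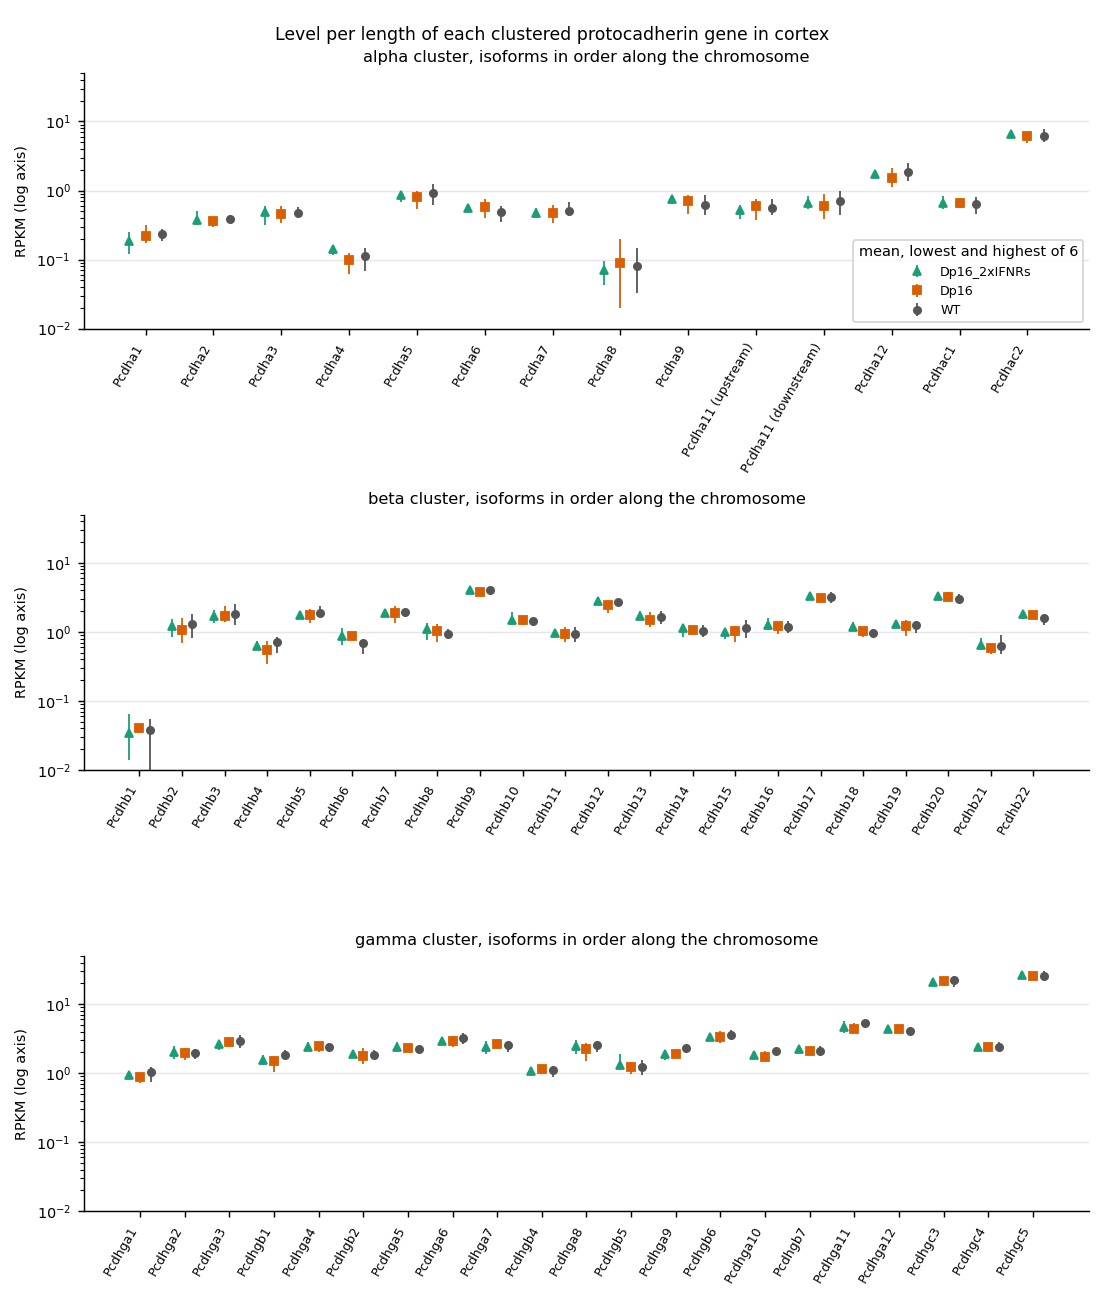
Level per length of each clustered protocadherin in cortex (RPKM, log axis), with isoforms in their order along the chromosome in 3 panels for the alpha, beta and gamma clusters. Points are means of 6 libraries for Dp16_2xIFNRs, Dp16 and WT and lines run from the lowest to the highest library. Pcdhgc3 and Pcdhgc5 stand above 17 RPKM in all libraries, and Pcdhb1 stands below 0.1 RPKM, with 1 WT library at 0.

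The exons that set these lengths are partly shared. The lengths behind the RPKM values equal the exon bases of GENCODE's basic gene set for all 57 members, and those of its full gene set, which adds partial and retained-intron transcripts, for 44 members. In the full set, the share of a gene's exon bases that no other gene of the same strand covers had a median of 46.4% in the alpha cluster, 100% in the beta cluster and 55.4% in the gamma cluster. Counted per kilobase of unshared exon, the order of the leading genes depended on the set. With the basic set Pcdhgc5 stood at 46.6 ± 4.43 CPM and Pcdhgc3 at 39.8 ± 3.92 CPM, in the order of RPKM, and with the full set Pcdhgc5 stood at 26.5 ± 2.52 CPM and Pcdhgc3 at 30.2 ± 2.98 CPM, in the reverse order. The medians without C-type genes were 4.08 CPM for gamma and 1.23 CPM for beta with either set, and for alpha 1.24 CPM with the basic and 1.21 CPM with the full set, so the gap between beta and alpha seen in RPKM was not there.

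Pcdha4 has few bases of its own. The full set gives 2410 of its exon bases also to Gm42416, a gene that spans into the gamma cluster and had 3 counts in all 18 libraries. Only 93 bases of Pcdha4 were unshared in the basic set and 494 in the full set, and its level per kilobase of them was 6.80 ± 1.7 CPM and 1.28 ± 0.319 CPM, second and sixth of the 14 alpha genes, where by RPKM it was the 13th. Its place among the alpha genes is therefore not fixed by these data. Pcdha8 was last of the alpha genes by all 3 measures.

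Along the chromosome, level and position were loosely related. Spearman's rho between order in the cluster and level per unshared kilobase of the full set, without the C-type genes, was 0.29 over 12 alpha genes, 0.24 over 22 beta genes and 0.19 over 18 gamma genes, and with the basic set it was 0.38, 0.24 and 0.41. By RPKM it was 0.61, 0.18 and 0.42. These points share libraries, so they are not independent. In the alpha and gamma clusters the genes also share constant exons, and how reads there were counted is not given in the sources used here.

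2 entries of the count table carry the symbol Pcdha11. The upstream entry (ENSMUSG00000007440) begins at 37005203, where RefSeq on GRCm38 places Pcdha10, from 37005320. The downstream entry (ENSMUSG00000102206) begins at 37010712, near the RefSeq start of Pcdha11 at 37010858. Their levels were 0.562 ± 0.135 RPKM upstream and 0.655 ± 0.169 RPKM downstream. Each is treated as a gene of its own.

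Isoform use was uneven in the alpha and gamma clusters and even in the beta cluster. Pcdhac2 took 49.3 ± 1.59% of alpha counts in Dp16_2xIFNRs, 49.2 ± 1.24% in Dp16 and 47.6 ± 1.31% in WT (SD, n = 6). The C-type genes together took 53.8 ± 1.02% of alpha counts in Dp16_2xIFNRs, 54.0 ± 1.2% in Dp16 and 52.1 ± 1.38% in WT, and the libraries ran from 52.6% to 55.0% in Dp16_2xIFNRs, 52.6% to 56.1% in Dp16 and 50.5% to 54.2% in WT. These ranges overlapped between all 3 genotypes.

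In the gamma cluster the C-type genes took 53.6 ± 0.992% of counts in Dp16_2xIFNRs, 54.2 ± 1.87% in Dp16 and 52.7 ± 1.40% in WT. Pcdhgc5 held from 27.7% to 28.9% in Dp16_2xIFNRs libraries, 25.2% to 30.1% in Dp16 and 22.9% to 29.4% in WT, and Pcdhgc3 from 20.8% to 24.4%, 22.2% to 27.1% and 18.3% to 26.5% in the same order. The range was widest in WT for both. These shares of counts are not scaled for length. Per unshared kilobase of the full gene set, the C-type share over all 18 libraries was 44.6 ± 1.56% in gamma and 47.5 ± 1.46% in alpha.

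The effective number of isoforms, the exponential of the Shannon entropy of the shares, is the number of equally used isoforms that would give the same evenness. In the alpha cluster it was 6.54 ± 0.282 in Dp16_2xIFNRs, 6.62 ± 0.257 in Dp16 and 6.76 ± 0.177 in WT, out of 14. In the beta cluster it was 18.3 ± 0.136 in Dp16_2xIFNRs, 18.3 ± 0.0906 in Dp16 and 18.4 ± 0.207 in WT, out of 22. In the gamma cluster it was 11.6 ± 0.248 in Dp16_2xIFNRs, 11.4 ± 0.520 in Dp16 and 11.8 ± 0.354 in WT, out of 21. The genotypes overlapped in each cluster.

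The summed level of each cluster overlapped between genotypes. Alpha sums were 73.4, 76.7 and 85.7 CPM (lowest, median and highest of 6) in Dp16_2xIFNRs, 59.2, 75.7 and 83.6 CPM in Dp16 and 62.5, 75.2 and 99.0 CPM in WT. Beta sums were 127, 145 and 151 CPM in Dp16_2xIFNRs, 120, 134 and 153 CPM in Dp16 and 116, 138 and 161 CPM in WT. Gamma sums were 410, 436 and 471 CPM in Dp16_2xIFNRs, 401, 433 and 475.9 CPM in Dp16 and 420, 445 and 516 CPM in WT. WT replicate 1 was the highest library in all 3 sums, and the groups overlapped in every comparison.

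Ratios of the mean sums were close to 1. For Dp16_2xIFNRs over WT the log2 ratio was 0.01 for alpha, 0.04 for beta and -0.06 for gamma, and for Dp16 over WT it was -0.06, -0.03 and -0.06. For comparison, the SD of the log2 sum among WT libraries was 0.259 for alpha, 0.151 for beta and 0.103 for gamma. The alpha and beta ratios of Dp16 over WT turned to 0.02 and 0.02 without WT replicate 1. Both comparisons use the same WT libraries. The log2 ratio of Dp16_2xIFNRs over Dp16 was 0.08 for alpha, 0.07 for beta and 0.00 for gamma.

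**Figure D2:**
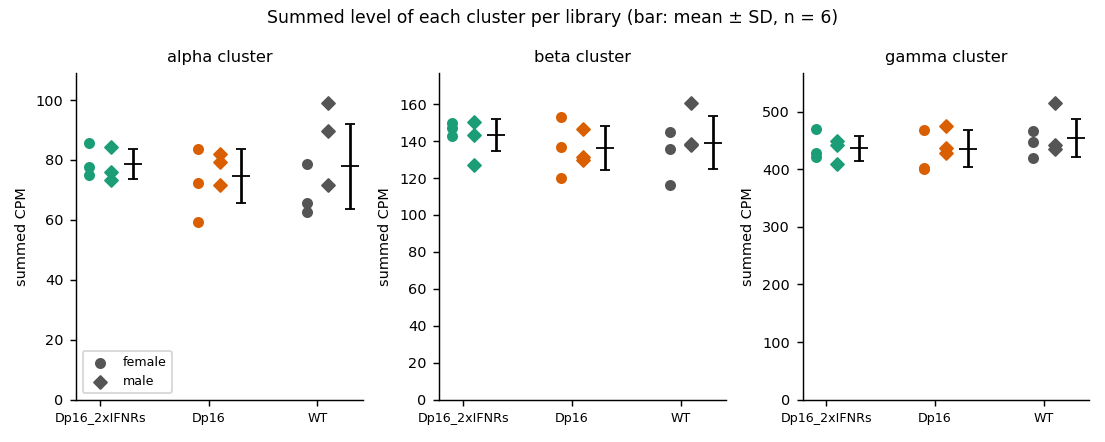
Summed CPM of the members of each cluster in each library, with circles for females and diamonds for males and a bar at the mean ± SD of 6 libraries, for Dp16_2xIFNRs, Dp16 and WT. All groups overlap, and WT replicate 1 is the highest point in each panel, at 99.0, 161 and 516 CPM.

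Single isoforms were tested with edgeR's quasi-likelihood test, fitted over all 18717 genes that passed the filter with genotype and sex as terms. A gene is called where its p, adjusted by Benjamini and Hochberg's method across these genes, falls below 0.05. No clustered protocadherin was called in Dp16_2xIFNRs against WT, where 1.05% of all genes were, and 7 of 56 members had an unadjusted p below 0.05, against 11.5% of all genes. Of these, 2 were above WT, as were 6.05% of all genes, and 5 below, as were 5.48%. The split turned to 6 above and 4 below without WT replicate 1, and to 3 above and 2 below without Dp16_2xIFNRs replicate 6. DESeq2 called 1 member, Pcdhga9, and limma-voom with sample quality weights 0. No member was called in Dp16 against WT either, where 0.748% of all genes were, and 5 of 56 had an unadjusted p below 0.05, against 8.84% of all genes. All 5 were below WT, as were 3.82% of all genes, while 5.02% of all genes and no member were above. Pcdhb6, above WT, had an unadjusted p of 0.0518 in edgeR's quasi-likelihood test, just past that bound. Without WT replicate 5 there were 10 such members and without Dp16 replicate 2 there were 9, all below WT. Without WT replicate 1 there were 4, all below WT, and without Dp16 replicate 6 there were 3 below and 1 above. The split was 6 below and 1 above in DESeq2, and 8 below and 1 above in limma-voom with sample quality weights. DESeq2 again called Pcdhga9 and limma-voom 0. In neither comparison did the groups separate for any member, whereas 1.34% of all genes in Dp16_2xIFNRs against WT and 0.919% in Dp16 against WT had groups that did not overlap.

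The estimates were centred near 0. In Dp16_2xIFNRs against WT the median log2 fold change over the 56 members was -0.01, with 27 above 0, and over all genes it was 0.00, with 50.2% above 0. That member median was 0.03 without WT replicate 1 and -0.06 without WT replicate 5. In Dp16 against WT the median was -0.06, with 21 members above 0, and over all genes 0.00, with 49.3% above 0. It was -0.01 without WT replicate 1, -0.02 without Dp16 replicate 4 and -0.10 without WT replicate 5. Members varied together between libraries, so their signs are not independent. The 95% interval of the fit, which covers the spread between libraries, lay inside a 1.5-fold change either way for 51 members in Dp16_2xIFNRs and 49 in Dp16. All 21 gamma isoforms were inside the 1.5-fold bound in both. Pcdha8, with 6 to 49 counts per library, had the widest intervals, from -1.23 to 0.75 in Dp16_2xIFNRs and from -1.03 to 0.94 in Dp16 on the log2 scale.

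**Figure D3:**
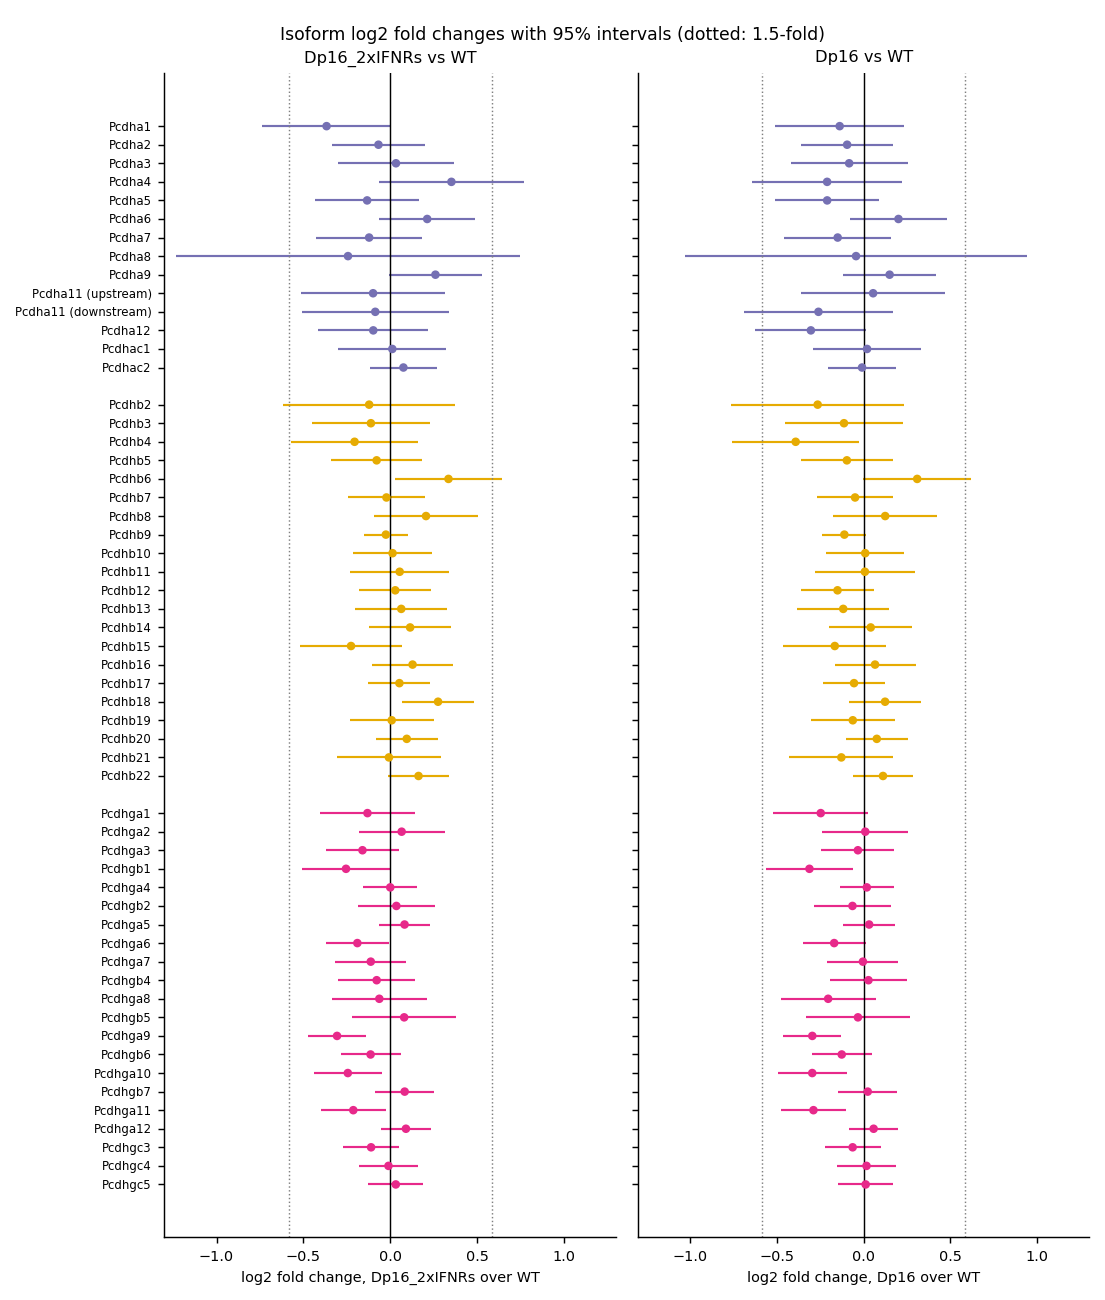
Log2 fold change of each of the 56 tested isoforms against WT, for Dp16_2xIFNRs on the left and Dp16 on the right, with 95% intervals and isoforms in chromosome order (purple alpha, yellow beta, pink gamma). Dotted lines mark a 1.5-fold change. All gamma intervals lie inside them, Pcdhga9 stands at -0.31 and -0.30, and Pcdha8 has the widest interval.

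Pcdhga9 had the smallest p in both comparisons with WT. It is an A-type gamma isoform whose own exon begins at 37736936. Its level was 7.55, 8.80 and 10.3 CPM (lowest, median and highest) in Dp16_2xIFNRs, 8.22, 8.84 and 9.43 CPM in Dp16 and 9.32, 10.9 and 12.2 CPM in WT, from 395 to 599 counts per library. All 6 libraries of each duplication genotype lay below the WT mean, 5 of Dp16_2xIFNRs and 4 of Dp16 below the lowest WT library, which was WT replicate 5. The log2 fold change was -0.31 in Dp16_2xIFNRs (SE 0.0803, adjusted p = 0.0811) and -0.30 in Dp16 (SE 0.0804, adjusted p = 0.125).

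The call on Pcdhga9 depended on the processing. It was past the threshold in DESeq2 (adjusted p = 0.0204 in Dp16_2xIFNRs and 0.0395 in Dp16) and in edgeR's quasi-likelihood test without WT replicate 5 (adjusted p = 0.0323 and 0.0451). The names of 11 libraries share a number with another library of the same sex and of nearly the same age, and the labels do not say what the number marks. With that number as a random block, limma-voom gave Pcdhga9 an adjusted p of 0.0284 in Dp16_2xIFNRs and 0.0740 in Dp16. Over all 32 alternatives the adjusted p ran from 0.0204 to 0.190 in Dp16_2xIFNRs and from 0.0395 to 0.298 in Dp16, and the sign was negative in all of them. The 2 comparisons share their WT libraries and are not independent.

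Pcdhga10 and Pcdhga11 are the next A-type isoforms along the cluster. They had the next smallest p in Dp16, and in Dp16_2xIFNRs they came after Pcdhb18. Pcdhga11 stood at 18.0, 22.3 and 27.0 CPM in Dp16_2xIFNRs, 18.6, 20.1 and 25.4 CPM in Dp16 and 24.4, 25.6 and 27.0 CPM in WT. In each duplication genotype 5 of 6 libraries lay below the lowest WT library, and the WT libraries were close together. The estimated log2 fold change was -0.21 in Dp16_2xIFNRs (SE 0.0892, adjusted p = 0.342 by edgeR's quasi-likelihood test) and -0.29 in Dp16 (SE 0.0894, adjusted p = 0.219).

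Pcdhga10 stood at 8.04, 8.27 and 9.74 CPM in Dp16_2xIFNRs, 6.90, 7.89 and 9.97 CPM in Dp16 and 8.66, 10.2 and 11.2 CPM in WT. In each duplication genotype 4 of 6 libraries lay below the lowest WT library and all 6 below the WT mean. The log2 fold change was -0.24 in Dp16_2xIFNRs (SE 0.0944, adjusted p = 0.284 by edgeR's quasi-likelihood test) and -0.30 in Dp16 (SE 0.0947, adjusted p = 0.240). Once genotype and sex were removed, the correlation over the 18 libraries was 0.69 between Pcdhga10 and Pcdhga11, 0.39 between Pcdhga9 and Pcdhga10 and 0.16 between Pcdhga9 and Pcdhga11.

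An antisense gene overlaps Pcdhga10. Gm26672, a long non-coding RNA on the minus strand from 37746559 to 37768242, covers the whole own exon of Pcdhga10 and had 86 to 156 counts per library. It averaged 2.03 ± 0.320 CPM in Dp16_2xIFNRs, 2.11 ± 0.184 CPM in Dp16 and 2.54 ± 0.316 CPM in WT (SD, n = 6). Its log2 fold change was -0.33 in Dp16_2xIFNRs (SE 0.110, adjusted p = 0.195 by edgeR's quasi-likelihood test) and -0.27 in Dp16 (SE 0.110, adjusted p = 0.456). The span of Gm26672 also holds the starts of Pcdhgb7, Pcdhga11 and Pcdhga12. Other minus-strand genes span member starts too, such as Gm10545 (the downstream Pcdha11 entry and Pcdha12) and BC037039 (Pcdhgc3). The library kit keeps strand, but the strand setting of the counting is not given in the sources used here. Whether reads of such overlapping genes were told apart is therefore unknown. The part of antisense genes in the values of Pcdhga10 or other members was not tested.

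Other gamma isoforms lay on either side of WT. Pcdhgb1, a B-type isoform, stood at 6.00, 7.17 and 8.87 CPM in Dp16_2xIFNRs, 4.82, 7.29 and 8.56 CPM in Dp16 and 7.33, 8.64 and 10.1 CPM in WT, and 4 of 6 libraries of each duplication genotype lay below the lowest WT library. In log2 fold change this was -0.25 in Dp16_2xIFNRs (adjusted p = 0.428 by edgeR's quasi-likelihood test) and -0.31 in Dp16 (adjusted p = 0.410). Pcdhga12, which lies just downstream of Pcdhga11, averaged 22.3 ± 1.60 CPM in Dp16_2xIFNRs, 21.8 ± 1.72 CPM in Dp16 and 21.0 ± 2.17 CPM in WT, with log2 fold changes of 0.09 and 0.06. The A-type genes counted 8 of 12 below WT in each comparison, and the B-type genes 3 of 6 in Dp16_2xIFNRs and 4 of 6 in Dp16.

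The 2 largest positive estimates of the gamma cluster besides Pcdhga12 were small. Pcdhgb7 averaged 10.4 ± 0.996 CPM in Dp16_2xIFNRs and 9.86 ± 1.15 CPM in WT (log2 fold change 0.08). Pcdhga5 averaged 10.9 ± 0.885 CPM in Dp16 and 10.6 ± 0.756 CPM in WT (0.03). The C-type genes stayed within 0.11 of 0 on the log2 scale in both comparisons, with Pcdhgc3 at -0.11 in Dp16_2xIFNRs and -0.06 in Dp16.

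Beta isoforms lay on either side of WT. The largest estimates were upward in Dp16_2xIFNRs, in Pcdhb6 and Pcdhb18, and downward in Dp16, in Pcdhb4. Pcdhb18 stood at 5.01, 5.63 and 7.01 CPM in Dp16_2xIFNRs, 4.26, 5.39 and 5.80 CPM in Dp16 and 4.31, 4.77 and 5.62 CPM in WT. All 6 Dp16_2xIFNRs libraries lay above the WT mean, and 3 above the highest WT library. The log2 fold change was 0.28 in Dp16_2xIFNRs (SE 0.0985, adjusted p = 0.237 by edgeR's quasi-likelihood test).

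Pcdhb6 stood at 2.43, 3.28 and 4.20 CPM in Dp16_2xIFNRs, 2.84, 3.24 and 3.64 CPM in Dp16 and 1.75, 2.74 and 3.01 CPM in WT. In each duplication genotype 4 of 6 libraries lay above the highest WT library. Its log2 fold change was 0.34 in Dp16_2xIFNRs (SE 0.149, adjusted p = 0.382 by edgeR's quasi-likelihood test) and 0.31 in Dp16 (SE 0.149, adjusted p = 0.574). At the other end stood Pcdhb4, at 2.28 ± 0.251 CPM in Dp16_2xIFNRs, 2.03 ± 0.62 CPM in Dp16 and 2.63 ± 0.486 CPM in WT, with log2 fold changes of -0.21 and -0.39.

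The remaining beta extremes had wide errors. Pcdhb2 in Dp16 (log2 fold change -0.26, SE 0.238) averaged 3.05 ± 1.06 CPM, against 3.64 ± 1.3 CPM in WT. Pcdhb15 in Dp16_2xIFNRs (-0.23, SE 0.142) averaged 2.74 ± 0.347 CPM, against 3.20 ± 0.675 CPM in WT. Pcdhb8 in Dp16 (0.12, SE 0.143) averaged 3.41 ± 0.794 CPM, against 3.11 ± 0.391 CPM in WT.

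No alpha isoform had an unadjusted p below 0.05 against WT in edgeR's quasi-likelihood test. In Dp16_2xIFNRs the lowest estimates were those of Pcdha1 (log2 fold change -0.37, SE 0.179) and Pcdha8 (-0.24, SE 0.472), and the highest those of Pcdha4 (0.35, SE 0.200) and Pcdha9 (0.26, SE 0.129). In Dp16 the lowest were Pcdha12 (-0.30, SE 0.152), the highest isoform of the cluster outside the C-type, and the downstream Pcdha11 entry (-0.26, SE 0.205), and the highest Pcdha6 (0.20, SE 0.133) and Pcdha9 (0.15, SE 0.129). Their adjusted p-values ran upward from 0.447.

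**Figure D4:**
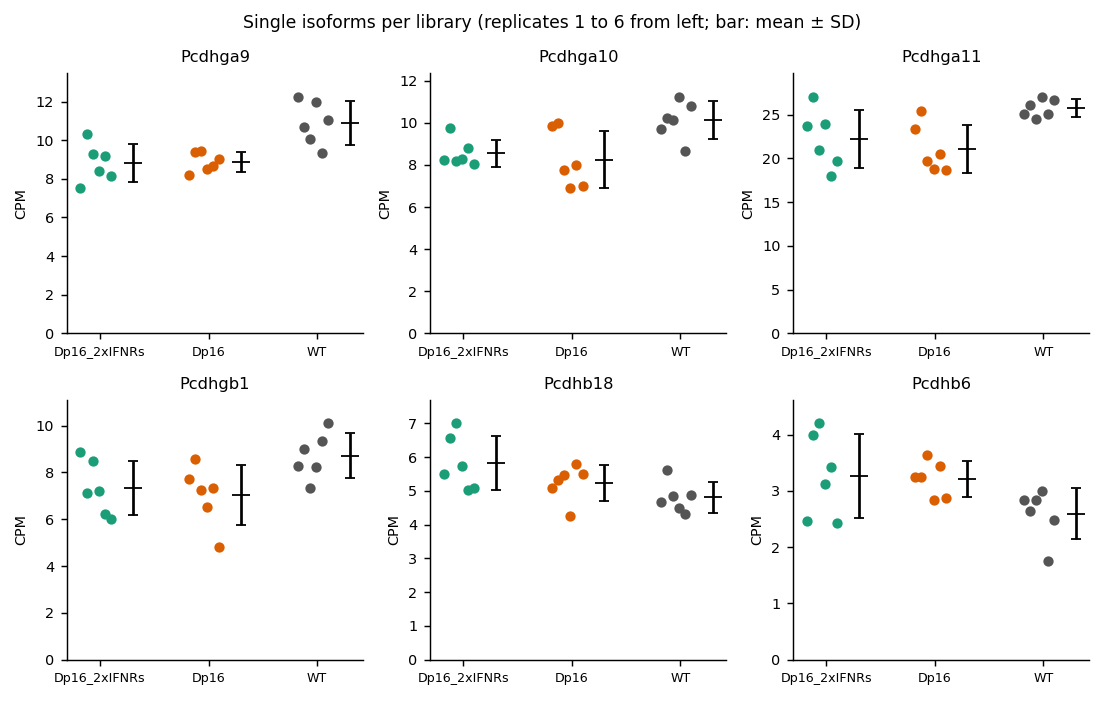
CPM of 6 isoforms in each library of Dp16_2xIFNRs, Dp16 and WT, with replicates 1 to 6 from left within a group and a bar at the mean ± SD. Pcdhga9, Pcdhga10, Pcdhga11 and Pcdhgb1 have lower means in both duplication genotypes than in WT, Pcdhb18 and Pcdhb6 have higher means, and the groups overlap in all 6.

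No member was called between the duplication genotypes. In Dp16_2xIFNRs against Dp16 edgeR's quasi-likelihood test called 0 of 56 members, as did DESeq2 and limma-voom, against 0.0214% of all genes in edgeR. An unadjusted p below 0.05 was found for 1 member, against 2.19% of all genes, 0.796% higher and 1.39% lower. It was Pcdha4, at 0.611, 0.793 and 0.841 CPM in Dp16_2xIFNRs and 0.326, 0.538 and 0.667 CPM in Dp16, so that 5 of 6 Dp16_2xIFNRs libraries lay above the highest Dp16 library. Its log2 fold change was 0.56 (SE 0.202, adjusted p = 1 by edgeR's quasi-likelihood test), from 19 to 51 counts per library over all genotypes.

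Most estimates were above 0 in that comparison. The median log2 fold change over members was 0.05. It was 0.01 without Dp16 replicate 4, 0.02 without Dp16_2xIFNRs replicate 2, 0.09 without Dp16 replicate 2 and 0.02 with age as a term. Positive values were found for 43 of 56 members, against 50.9% of all genes, and for 20 of 21 beta isoforms, with a median of 0.07. The beta exception was Pcdhb15 (-0.06, SE 0.142), and the smallest positive value that of Pcdhb3 (0.00, SE 0.162). The largest were those of Pcdhb4 (0.19, SE 0.176) and Pcdhb13 (0.18, SE 0.127), while Pcdhb12 (0.18, SE 0.0992) and Pcdhb18 (0.15, SE 0.0979) had the smallest p after Pcdha4. No group of libraries separated for any member, against 0.107% of all genes. Once genotype and sex were removed, the mean correlation was 0.28 between members and 0.31 between beta isoforms, so these signs are not independent. The log2 ratio of the beta sums was 0.07, beside an SD of the log2 sum of 0.0890 in Dp16_2xIFNRs and 0.128 in Dp16.

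In the other clusters the extremes of Dp16_2xIFNRs against Dp16 were Pcdha1 (-0.23, SE 0.179), Pcdha8 (-0.20, SE 0.472) and Pcdha12 (0.21, SE 0.152) in alpha. In gamma they were Pcdhga3 (-0.13, SE 0.101), Pcdhga7 (-0.11, SE 0.0980), Pcdhga1 (0.12, SE 0.131) and Pcdhga8 (0.14, SE 0.131). All values are log2 fold changes. The 95% interval lay inside a 1.5-fold change for 51 of 56 members.

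Sex was balanced in each genotype and gave no called member. In females against males edgeR's quasi-likelihood test called 0 of 56, as did DESeq2 and limma-voom, against 0.0641% of all genes in edgeR, and 5 members had an unadjusted p below 0.05, against 6.64%. Of these 1 was higher in females, as were 3.47% of all genes, and 4 lower, as were 3.17%. The split was 3 higher and 2 lower without WT replicate 1, without WT replicate 5 and in limma-voom with sample quality weights. The smallest p belonged to Pcdha9, at 2.41, 3.32 and 4.18 CPM (lowest, median and highest of 9) in females and 3.13, 4.20 and 4.76 CPM in males. The sexes overlapped, and the log2 fold change was -0.33 (SE 0.105, adjusted p = 0.741 by edgeR's quasi-likelihood test). Pcdha6 averaged 2.61 ± 0.440 CPM in females and 3.21 ± 0.502 CPM in males (log2 fold change -0.30, SE 0.108), and Pcdhb16 5.86 ± 0.868 CPM and 6.79 ± 0.853 CPM (-0.21, SE 0.0910).

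Females had higher estimates in 17 of 56 members and lower ones in 39, while 51.6% of all genes were higher. Members varied together between libraries, so these signs are not independent. The median over members was -0.06 on the log2 scale, and 0.00 over all genes. The member median was -0.03 without WT replicate 1 and -0.03 without WT replicate 5, and it was below 0 in each fit without a single library. It was 0.02 without these libraries and Dp16 replicate 4. By summed level of all members, these were the highest male library (775 CPM) and the lowest female libraries (599 and 580 CPM). They were chosen after seeing the data, and leaving them out pushes the median upward, so this fit cannot decide its sign. Groups by sex separated for no member, against 0.0534% of all genes. A genotype effect that differs by sex was called for 0 of 56 members in either duplication genotype by edgeR's quasi-likelihood test, and for 0% of all genes. With an unadjusted p below 0.05 there were 3 members in Dp16_2xIFNRs, against 5.87% of all genes, and 3 in Dp16, against 3.08%. Pcdha8 had the smallest p in Dp16 (unadjusted 0.000584, adjusted 0.9999 by edgeR's quasi-likelihood test). Its log2 fold change was 2.97 higher in females than in males, from few counts per library. In Dp16 it stood at 0.491 to 1.05 CPM in 3 females and 0.105 to 0.240 CPM in 3 males, while in WT the sexes overlapped. The interaction was fitted with edgeR alone.

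Spread between libraries was described by the biological coefficient of variation, the spread beyond counting noise once genotype and sex are fitted. It was above the trend at the gene's level for 24 of 56 members (42.9%) and for 5249 of 18717 genes tested. It was highest relative to the trend for Pcdha8 (52.1%), Pcdhb2 (27.9%) and Pcdha12 (18.2%), and lowest for Pcdhb9 (7.68%), Pcdha4 (17.7%) and Pcdha2 (13.6%). Pcdhb2, for example, stood at 2.29 to 4.26 CPM in Dp16_2xIFNRs, 1.91 to 4.59 CPM in Dp16 and 2.29 to 5.21 CPM in WT, and Pcdhb9 at 11.2 to 13.6 CPM, 10.7 to 12.9 CPM and 11.7 to 13.7 CPM in the same order. The median over members was 17.6% in the alpha cluster, 13.98% in beta and 11.1% in gamma.

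**Figure D5:**
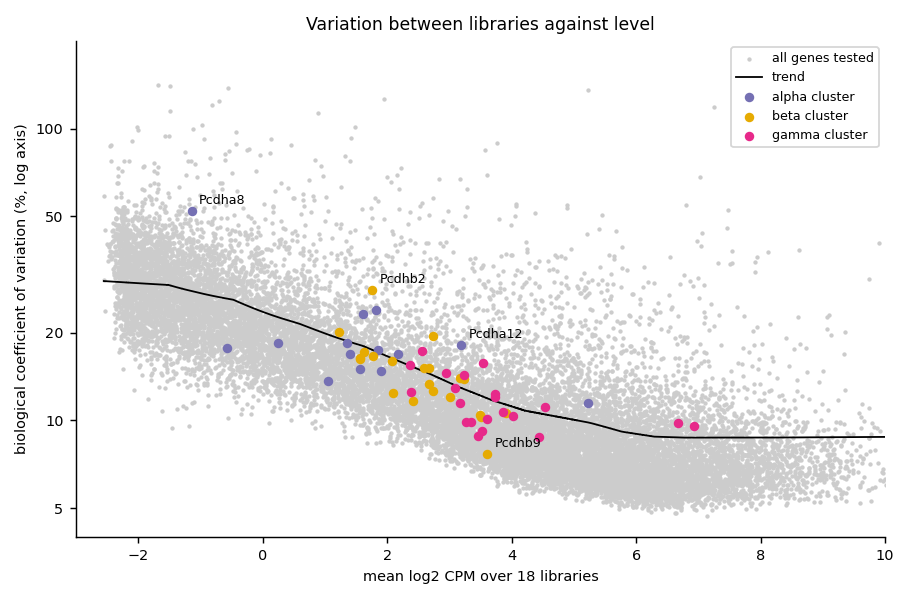
Biological coefficient of variation between libraries (percent, log axis) against mean log2 CPM over 18 libraries, for genes tested (grey), their trend (black line) and the 56 members (purple alpha, yellow beta, pink gamma). Pcdha8 at 52.1% and Pcdhb2 at 27.9% lie above the trend and Pcdhb9 at 7.68% below it.

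Members also varied together. After removal of genotype and sex, the mean correlation of log2 CPM over the 18 libraries was 0.28 between pairs of members, against 0.00 between pairs of all genes tested. Within clusters it was 0.27 for alpha, 0.31 for beta and 0.35 for gamma, and between clusters 0.25 for alpha with beta, 0.22 for alpha with gamma and 0.30 for beta with gamma. Position made little difference in the alpha and beta clusters, where adjacent genes had a median of 0.31 and 0.39 and other pairs of the same cluster 0.32 and 0.38. In the gamma cluster the median was 0.45 over 20 adjacent pairs and 0.34 over 190 other pairs. These are descriptions over shared libraries, and alpha and gamma pairs also share constant exons. In the full gene set Gm42416 shares 446 exon bases with each gamma member and has 0 unshared bases. It had 3 counts in all libraries, so reads of those bases were hardly counted to it. The part of constant exons in these correlations was not tested. Pairs of all genes averaged near 0 after library scaling, and no set of genes matched for level was compared. The values therefore do not set this family apart from other genes.

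By the same measure, the genes outside the clusters most like the alpha sum were Kif21a, a kinesin (r = 0.95), Nsf, which recycles the membrane fusion machinery (0.95), Lrp11 (0.95), Atp6v1a of the proton pump (0.95) and Ckmt1, a mitochondrial creatine kinase (0.94). Most like the beta sum were the phosphatase Ppm1a (0.97), the nuclear receptor Nr2c2 (0.95), the chloride transporter Clcn3 (0.94), Spin1 (0.93) and Klf5 (0.93). Most like the gamma sum were Sdha of mitochondrial respiration (0.93), Cds2 of lipid synthesis (0.92), Cyfip2 (0.92), the actin nucleator Fmn2 (0.91) and the matrix protein Tnr (0.91). Each value is Pearson's r over 18 libraries with genotype and sex removed, and these were the highest of 18717 genes.

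No gene near the clusters was called. Among 7 tested genes inside the locus that were not members and 5 on either side of it, edgeR's quasi-likelihood test called 0 in every comparison, and an unadjusted p below 0.05 was found for 3 of the 17 in Dp16_2xIFNRs against WT, against 11.5% of all genes, 1 in Dp16 against WT, against 8.84%, 1 in Dp16_2xIFNRs against Dp16, against 2.19%, and 1 in females against males, against 6.64%. Gm26672 was among them in both comparisons with WT. Gm10545, on the minus strand within the alpha cluster, averaged 0.433 ± 0.0582 CPM in Dp16_2xIFNRs and 0.599 ± 0.0793 CPM in WT (log2 fold change -0.47, SE 0.175, adjusted p = 0.271 by edgeR's quasi-likelihood test). Gm38182, inside the gamma cluster, averaged 0.695 ± 0.129 CPM in Dp16_2xIFNRs and 0.961 ± 0.154 CPM in Dp16, a log2 fold change of -0.46 with an SE of 0.177 and, by the same test, an adjusted p of 1. The gene between the sexes was Arap3, downstream of the clusters. Taf7, a subunit of the general transcription factor TFIID that lies between the beta and gamma clusters, stood at 7.78 ± 0.406 CPM in Dp16_2xIFNRs, 7.54 ± 0.711 CPM in Dp16 and 6.97 ± 0.355 CPM in WT. Its log2 fold change was 0.16 in Dp16_2xIFNRs (SE 0.0683, adjusted p = 0.359 by edgeR's quasi-likelihood test). The pseudogene Pcdhgb8 averaged 0.733 ± 0.0710 CPM in Dp16_2xIFNRs, 0.761 ± 0.124 CPM in Dp16 and 0.810 ± 0.193 CPM in WT.

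A list of regulators of promoter choice and silencing was examined beside the members. It held 24 genes, all tested, among them Ctcf, the cohesin genes Rad21, Smc1a, Smc3, Stag1 and Stag2, the DNA methyltransferases, Setdb1 with its partners Atf7ip and Trim28, and Smchd1. In it 0 genes were called in any comparison by edgeR's quasi-likelihood test, DESeq2 or limma-voom. An unadjusted p below 0.05 was found for 1 gene in Dp16_2xIFNRs against WT, beside 11.5% of all genes. The same held for 1 gene in Dp16 against WT, beside 8.84%. In Dp16_2xIFNRs against WT 4 of 24 lay above 0, beside 50.2% of all genes, and in Dp16 against WT 3 of 24, beside 49.3%. The medians were -0.04 and -0.06 on the log2 scale. These genes share libraries, and both comparisons use the same WT libraries, so the signs are not independent. The level summed over the list ran from 1876 to 2044 CPM in Dp16_2xIFNRs, 1861 to 1978 CPM in Dp16 and 1863 to 2129 CPM in WT, with overlapping groups. Atf7ip averaged 81.9 ± 3.89 CPM in Dp16_2xIFNRs, 79.5 ± 8.93 CPM in Dp16 and 88.7 ± 9.53 CPM in WT (log2 fold changes against WT of -0.11 and -0.16), and Stag2 63.6 ± 2.59 CPM in Dp16 and 67.1 ± 1.45 CPM in WT (-0.08).

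Among 24 membrane and signalling partners, 1 was called in each comparison with WT, beside 1.05% of all genes in Dp16_2xIFNRs and 0.748% in Dp16. It was Grik1, a kainate receptor gene that lies on chromosome 16 in the duplicated segment, which rose to 18.6 ± 0.950 CPM in Dp16_2xIFNRs and 18.9 ± 1.85 CPM in Dp16, against 11.99 ± 0.876 CPM in WT (log2 fold change 0.64, adjusted p = 3.72e-06, and 0.66, adjusted p = 2.45e-06, by edgeR's quasi-likelihood test). Axin1, a scaffold of Wnt signalling that binds the tail of Pcdhgc3, averaged 22.9 ± 1.51 CPM in Dp16_2xIFNRs, 23.6 ± 0.829 CPM in Dp16 and 25.8 ± 0.654 CPM in WT. Its log2 fold change was -0.18 in Dp16_2xIFNRs (SE 0.0471, adjusted p = 0.0864, and 0.0156 in DESeq2) and -0.13 in Dp16 (SE 0.0471, adjusted p = 0.359). Of the list, 10 genes were above 0 in Dp16_2xIFNRs and 8 in Dp16, with median log2 fold changes of -0.02 in both.

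The relatives of the family outside the clusters were not called either. Of 12 non-clustered protocadherins, 2 were above 0 in Dp16_2xIFNRs against WT and 4 in Dp16 against WT. The medians were -0.11 and -0.07 on the log2 scale. As in the regulator list, these genes share libraries and their signs are not independent. In each comparison 1 gene had an unadjusted p below 0.05, beside 11.5% of all genes in Dp16_2xIFNRs and 8.84% in Dp16. It was Pcdh11x, an X-linked protocadherin, at 15.0 ± 1.93 CPM in Dp16_2xIFNRs, 15.8 ± 2.65 CPM in Dp16 and 18.7 ± 1.16 CPM in WT (log2 fold change -0.32, adjusted p = 0.151, and -0.24, adjusted p = 0.433, by edgeR's quasi-likelihood test). Without Dp16 replicate 3 it passed the threshold in Dp16_2xIFNRs (adjusted p = 0.0487). Pcdh10 in Dp16_2xIFNRs (-0.13, SE 0.0626) and Pcdh15 in Dp16 (-0.20, SE 0.110) came next.

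Of 17 cadherins that are not protocadherins, 9 were above 0 in Dp16_2xIFNRs and 6 in Dp16, with medians of 0.00 and -0.05. In Dp16_2xIFNRs the smallest p belonged to Cdh13 (log2 fold change -0.19, SE 0.0640) and Cdh7 (-0.15, SE 0.0872), and in Dp16 to Cdh4 (0.21, SE 0.128) and Cdh9 (-0.15, SE 0.0956). In these last 2 lists edgeR's quasi-likelihood test, DESeq2 and limma-voom called 0 genes in each comparison with WT. In Dp16_2xIFNRs against Dp16, and in females against males, the 3 tools called 0 genes in any of the 4 lists. The smallest p there belonged to Pcdh8 (-0.19), Marcks (-0.11), Nlgn2 (-0.07), Cdh4 (-0.20), Cdh13 (-0.10), Zfp143 (0.17), Ctcf (0.04) and Pcdh19 (-0.20) between the duplication genotypes. Between the sexes it belonged to Cdh10 (-0.17), Cdh18 (-0.20), Ret (0.15), Prkca (-0.13), Pcdh17 (-0.12), Pcdh12 (-0.40), Pds5a (-0.10) and Ctcf (-0.06).

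The level summed over 5 markers of excitatory neurons was 6228 ± 428 CPM in Dp16_2xIFNRs, 6494 ± 507 CPM in Dp16 and 6737 ± 625 CPM in WT, and over 6 GABAergic markers 911 ± 47.3 CPM, 912 ± 77.7 CPM and 900 ± 42.7 CPM in the same order. Over 5 oligodendrocyte markers it was 5228 ± 196 CPM in Dp16_2xIFNRs, 4972 ± 547 CPM in Dp16 and 4922 ± 503 CPM in WT, and over 6 astrocyte markers 6787 ± 770 CPM, 6893 ± 756 CPM and 6727 ± 912 CPM. The ranges overlapped between genotypes, edgeR's quasi-likelihood test called none of these markers in a comparison of genotypes, and their part in the members' values was not tested. Camk2a, at a mean of 4741 CPM, and Slc1a2, at 5392 CPM, made up most of their sums. Above WT in Dp16_2xIFNRs were 5 of 5 oligodendrocyte markers (lowest adjusted p = 0.0572 by the same test), 4 of 6 astrocyte, 4 of 6 GABAergic and 1 of 5 excitatory markers. Of 4 microglia markers, 0 were above WT in either comparison, and none was called.

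Serotonergic neurons, whose axons need Pcdhac2, have their cell bodies outside the cortex. Of their 3 markers, Slc6a4 and Fev stood below 0.2 CPM in all libraries, and only Tph2, the enzyme of serotonin synthesis, was tested. Tph2 rose to 1.74 ± 0.106 CPM in Dp16_2xIFNRs, against 1.1 ± 0.260 CPM in WT (log2 fold change 0.67, adjusted p = 0.0172 by edgeR's quasi-likelihood test), and averaged 1.63 ± 0.0889 CPM in Dp16 (0.57, adjusted p = 0.0646). Without WT replicates 1 and 5 and Dp16 replicate 4 the adjusted p of Tph2 in Dp16_2xIFNRs was 0.0767, and 0.0691 with only these 2 genotypes in the fit. In Dp16 the adjusted p of Tph2 was 0.00836 in DESeq2, 0.0108 in limma-voom and 0.0425 in limma-voom with the number in the library names as a block. It stayed above the threshold in 25 of 32 alternatives, and the highest adjusted p among them was 0.237. Pcdhac2 itself stood at 35.6, 37.6 and 42.9 CPM in Dp16_2xIFNRs, 29.1, 37.9 and 40.5 CPM in Dp16 and 30.6, 35.3 and 46.5 CPM in WT, with overlapping groups.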

How the data were processed

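Per the labels' protocols, polyadenylated RNA from TRIzol extracts went into strand-specific libraries that were read from both ends. The submitters' processing notes name the aligner HISAT2 2.1.0, the counter HTSeq 0.6.1, SAMtools 1.5 and build GRCm38. How strand and shared exons were handled in counting is not given in the sources used here. The authors deposited raw counts per gene, which entered all main tests, and RPKM values, which served for levels between genes and for alternative fits.

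Counts were filtered with filterByExpr (edgeR 4.0.16, minimum count 10), TMM-scaled and put through edgeR's quasi-likelihood test with genotype and sex as terms and 14 residual degrees of freedom (R 4.3.3), with p-values adjusted over all 18717 genes. The scripts were tested on simulated data. DESeq2 1.42.0 and limma 3.58.1 served as alternatives. CPM are scaled by TMM and given as mean ± SD, or as the lowest, median and highest library. Exon sharing was computed from GENCODE release M21 of the same build, in its full and basic gene sets, while the deposited tables name release M24. Of 7 pairs of libraries that share a number in their names, each of matching sex, 7 had correlated deviations from their group means (r above 0.1). Sex was not removed from these deviations. The number in the names served as a block in an added limma-voom fit.

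Named were the C-type genes, the highest and lowest 2 isoforms of each cluster, in each genotype comparison the 3 members of smallest p and the extreme 2 fold changes of each cluster either way, the extreme 3 dispersions, and called or leading genes of each list. The members named between the sexes, the Pcdha8 values by sex, Axin1, Gm26672, Gm10545, Gm38182, Arap3, Taf7 and Pcdhgb8 were added after their values were seen. The members and lists were chosen with earlier results of these data known. Sequences of these genes are not reported here. One gene of the regulator list is counted with that list and not reported here by name.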

Additional observations from a re-analysis of the deposited data

Results flagged for a closer look

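In groups of 6 libraries, a library was singled out when its gap to the nearest other library, divided by the range of the group, passed Dixon's 95% critical value for 6 values. This was tested for 56 members and 3 cluster sums in each of the 3 genotypes. Of 177 groups 11 passed, or 6.21%, where chance gives about 1 in 20.

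In Dp16_2xIFNRs, Pcdha2 reached 2.69 CPM in replicate 4, with the next library at 2.00 CPM, and Pcdhgb5 reached 8.86 CPM in replicate 2, with the next at 6.19 CPM. The beta cluster sum of Dp16_2xIFNRs replicate 6 was 127 CPM, below the next library at 143 CPM. In Dp16, replicate 2 was high in 3 isoforms, with 1.71 CPM of Pcdha1, 11.6 CPM of Pcdha12 and 13.8 CPM of Pcdhb20, against next values of 1.15, 8.04 and 11.4 CPM. Pcdhga4 stood at 9.53 CPM in Dp16 replicate 4, below the next at 11.5 CPM. In WT, replicate 1 was high in 3 isoforms, with 3.70 CPM of Pcdha7, 8.73 CPM of Pcdhb5 and 10.5 CPM of Pcdhgb2, against next values of 2.78, 6.51 and 8.57 CPM. Pcdhb19 stood at 6.72 CPM in WT replicate 5, below the next at 8.97 CPM.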

How the results depend on the processing

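Of 126 recomputed counts of called members 121 stayed at 0. Limma-voom with the number in the library names as a block gave 1, Pcdhga9, in Dp16_2xIFNRs against WT. DESeq2 gave 1 called member, Pcdhga9, in Dp16_2xIFNRs against WT and 1 in Dp16 against WT. Leaving out single libraries gave counts from 0 to 1 in each of these comparisons, with the 1 reached without WT replicate 5, and 0 in the others. The cause was not tested. Over all alternatives, members with an unadjusted p below 0.05 numbered 4 to 10 in Dp16_2xIFNRs against WT, 4 to 10 in Dp16 against WT, 0 to 4 in Dp16_2xIFNRs against Dp16 and 3 to 9 in females against males. All 252 recomputed log2 ratios of cluster sums stayed within the spread between libraries.

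Of 2597 recomputed log2 fold changes of named genes 2560 kept sign and side of the threshold and 21 changed sign, all of genes that were not called. Pcdhb8 in Dp16 against WT was -0.0137 without WT replicate 6 and Dp16 replicate 3. Pcdha8 in Dp16_2xIFNRs against WT was 0.16 in limma-voom, 0.10 without WT replicate 6 and 0.0887 without that library and Dp16 replicate 3, and from -0.44 to 0.10 without single libraries. In Dp16_2xIFNRs against Dp16, Pcdha8 was 0.0209 in limma-voom, from -0.42 to 0.13 without single libraries, the top value without Dp16 replicate 4 and 0.14 without that library and WT replicates 1 and 5. There, Pcdhb15 was 0.0110 without Dp16 replicate 6 and Pcdhga1 -0.0120 with age as a term. Pcdhb3, near 0 in the main test, was -0.000677 when 1 CPM was required in 6 libraries, -0.000209 in DESeq2, -0.13 with age as a term, -0.00546 with the number in the library names as a block, -0.0562 without WT replicate 6 and Dp16 replicate 3, and from -0.0599 to 0.13 without single libraries. The log2 ratio of Pcdhgc5 over Pcdhgc3 levels was -0.19 per unshared kilobase of the full gene set and 0.23 with the basic set. By RPKM the effective number of alpha isoforms was 7.01 and the Pcdhac2 share 46.2%. The basic gene set, the block on numbers in library names and leaving out several libraries together were chosen after seeing the data.

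Whether replicate numbers pair samples cannot be told from these values. Of 18 same-numbered pairs 11 had a correlation of their deviations above 0.1, with a median of 0.18 and a lowest of -0.18. Sex was not removed from the deviations, and 14 of the pairs were of the same sex. The numbers in the library names give 7 pairs, with correlations from 0.10 to 0.43, among 11 libraries. All but the pair under number 046 also share a replicate number. With the replicate block edgeR called 0 members in each comparison, and 8, 8, 2 and 5 members had an unadjusted p below 0.05 in the order above. Pcdha8, with 6 to 49 counts per library and a biological coefficient of variation of 52.1%, could not be bounded within a 1.5-fold change, and the parts of depth and of spread in this were not separated.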
